A study of Mus musculus with 12 samples.

Results

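The 10 genes described here encode the enzymes and scaffolds that the zinc finger repressor Gfi1 recruits to silence its targets: the demethylase LSD1 (Kdm1a), the CoREST scaffolds (Rcor1, Rcor2 and Rcor3), the class I histone deacetylases Hdac1, Hdac2 and Hdac3, and the histone methyltransferases Ehmt1, Ehmt2 and Suv39h1. They were chosen by name, for that role, from the 41214 genes with a count, and all 10 were among the 13822 genes with enough counts to be tested. RNA came from leukaemic cells of 4 mice on the C57/BL6 NUP98-HOXD13 background, with 1 library a mouse. In 2 of them the Gfi1 genotype was KI/wt (labelled het in the RNA records, called KI here), and in the other 2 it was KD/KD (labelled homo, called KD here). All 4 mice carried the NUP98-HOXD13 transgene, a leukaemia-driving fusion gene, and neither a mouse with unaltered Gfi1 nor a mouse without the transgene was among the RNA samples. The sources used here do not give ages or cell purity.

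As background, Gfi1 binds DNA through its zinc fingers and holds LSD1 through the short SNAG domain at its start, whose sequence resembles the tail of histone H3. LSD1 removes methyl groups from lysine 4 of histone H3, CoREST proteins tie LSD1 to nucleosomes and to Hdac1 or Hdac2, and the deacetylases strip acetyl groups from histones, among them H3K9ac. Ehmt2 (G9a) and its partner Ehmt1 (GLP) place methyl groups on the same lysine 9, and Suv39h1 adds further ones in heterochromatin. In blood formation this machinery is known for shutting stem cell and alternative lineage genes as granulocytes, red cells and lymphocytes mature.

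The start regions of the CoREST genes Rcor1 and Rcor2 are shown because these paralogues, the only 2 of the 10 genes with a negative log2 fold change, are described at length below. RefSeq (GRCm38.p6) start windows of 250 bases were used for 8 of the 10 genes. They make 10 windows, since Ehmt2 and Suv39h1 each have more than 1 start. Windows of Hdac1 and Hdac3 were not used here, whether or not RefSeq lists their starts. The window counts therefore do not cover Hdac1 and Hdac3, and their starts were not tested. Capitals mark CG pairs, and both sequences run 5′ to 3′ on the plus strand, from chr12:111039117-111039366 for Rcor1 and from chr19:7267144-7267393 for Rcor2.
Rcor1: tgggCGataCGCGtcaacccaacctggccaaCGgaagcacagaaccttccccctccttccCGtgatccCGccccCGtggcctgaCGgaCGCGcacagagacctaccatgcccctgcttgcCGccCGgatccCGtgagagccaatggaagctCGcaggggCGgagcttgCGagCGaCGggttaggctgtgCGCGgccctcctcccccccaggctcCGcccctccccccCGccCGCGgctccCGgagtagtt
Rcor2: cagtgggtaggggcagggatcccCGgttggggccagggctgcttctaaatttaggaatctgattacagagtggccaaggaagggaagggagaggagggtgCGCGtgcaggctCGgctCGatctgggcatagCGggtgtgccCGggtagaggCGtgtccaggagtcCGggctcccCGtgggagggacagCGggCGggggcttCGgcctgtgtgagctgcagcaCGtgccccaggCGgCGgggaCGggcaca
The Rcor1 window holds 25 CG pairs and the Rcor2 window 17, against a median of 6 over all 32851 windows of the same length. All 10 windows of the 8 genes lie above that median, from 11 at 1 start of Suv39h1 to 39 at Rcor3. The letters AAATCA (or TGATTT on the other strand), part of the known Gfi1 binding motif, occur in 0 of the 10 windows. The share over all windows is 12.4%. The absence says only that this full string of letters is not in these stretches, and shorter parts of the motif were not searched for.

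Library depth and makeup differed between the mice. Gene counts ranged from 4581593 (KI replicate 1) to 11934542 (KD replicate 1), so that 3 counts stand for between 0.212 and 0.696 CPM (counts scaled to the library's total over tested genes, with the TMM factors of edgeR). KI replicate 1 stood apart: 88.3% of its uniquely aligned reads were counted to no gene, against 63.2% to 68.3% elsewhere. The summed level of its receptor genes for odours, pheromones and taste, normally silent in blood, was 992 CPM against 145 to 239. The 12 markers of myeloid progenitors and leukaemia were all measured, with sums of 3671 to 5167 CPM. Neutrophil granule markers had sums of 15900 and 17030 CPM in KI libraries but 3550 and 1628 CPM in KD libraries, and erythroid markers to 498 and 488 against 75.1 and 4.06, with Hba-a1 and Epor at 0 counts in KD replicate 2. T cell markers summed to 75.4 and 59.2 CPM in KI and 11.9 and 17.8 in KD. B cell markers summed to 36.64 and 32.15 CPM in KI and 15.92 and 20.65 in KD, and stroma markers to between 47.2 and 96.0 CPM. The part that these differences in cell makeup and depth play in the results below was not tested. The kit kept strand, but the sources used here do not say how counting used it, and reads of a gene and an antisense partner cannot be told apart. How far the share of reads counted to no gene depends on that setting was not tested, and every count here shares this limit.

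The genotypes were compared to see whether the corepressor machinery changed where Gfi1 itself was reduced. The KI mice had 36.2 and 89.0 CPM of mouse Gfi1 RNA and the KD mice 7.22 and 1.12 CPM, lower in both KD libraries. The log2 fold change was -3.89 ± 0.95 (SE), and the quasi-likelihood fit of edgeR gave adjusted p = 0.5185. The call for Gfi1 turned with the analysis: DESeq2 gave -3.76 with adjusted p = 0.001198, and edgeR without a low-count filter -3.78 with adjusted p = 2.387e-06. Leaving out KD replicate 1 in edgeR gave -5.78 with adjusted p = 8.185e-07, and leaving out KD replicate 2 gave -3.12 with adjusted p = 0.03545, both past the threshold. Leaving out either KI mouse did not pass it (edgeR adjusted p = 0.06451 for replicate 1 and 0.1013 for replicate 2). Mice of these designs are known to carry human GFI1 coding sequence at the altered allele, so the mouse counts do not give the total GFI1 dose. None of the 10 corepressor genes passed the same test (adjusted p under 0.05), where the share of all genes called was 0%. At an unadjusted p under 0.05 there were 0 of the 10, beside 9.63% of all genes tested (1.29% higher and 8.34% lower in KD). That unadjusted count was 3 of the 10 with library size only, where it was 1898 over all genes, against 1331 in the main fit. It was 1 of the 10 with DESeq2 (1582 over all genes) and 1 of the 10 with scaling to reference genes (1361). Some of the 10 also had such a p without KI replicate 1 or without KI replicate 2, where more of all genes did too. DESeq2 called 0 of the 10 (1.09% of all genes) and limma-voom also 0. The median log2 fold change, KD minus KI, was 0.15 over the 10 genes and -0.06 over all genes tested, and the median size regardless of sign was 0.30 and 0.36. The median over the 10 genes was -0.059 with libraries scaled to reference genes and 0.60 with library size only, where the median of all genes moved by -0.24 and 0.43. Of the 10 genes, 8 had a positive value and 2, Rcor1 and Rcor2, a negative one.

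**Figure D1:**
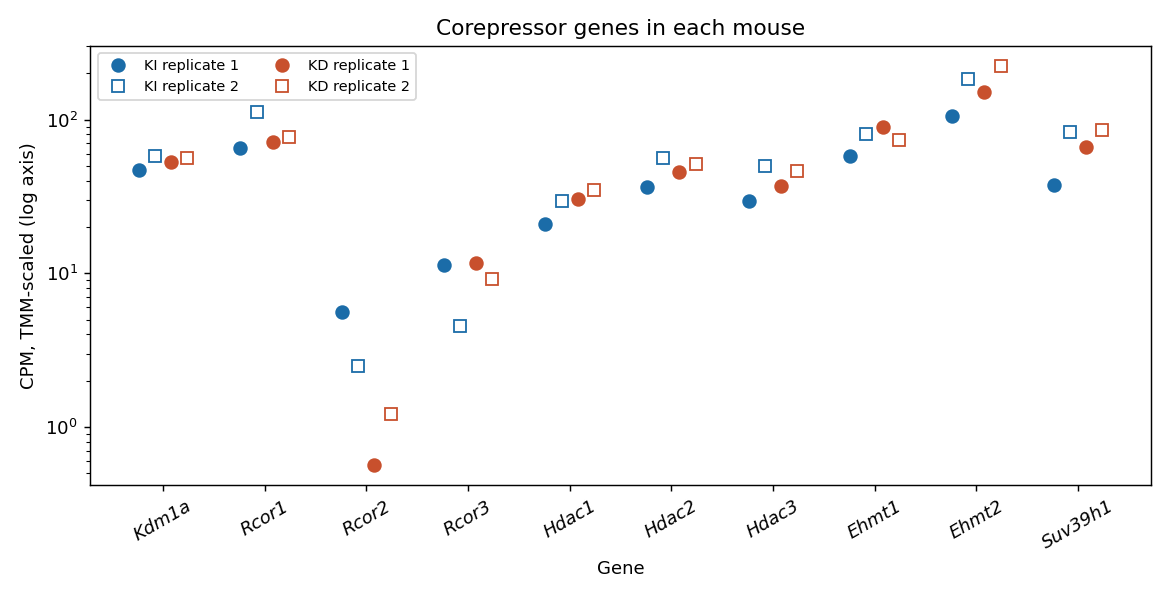
Level of each corepressor gene in each of the 4 mice, in TMM-scaled CPM on a log axis; blue points are KI mice, red points KD mice, filled circles replicate 1 and open squares replicate 2. KI replicate 1 is the lowest point for 8 genes, and Rcor2 alone has both KD points below both KI points.

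Kdm1a, which encodes LSD1, the subunit that Gfi1 binds directly, was the steadiest of the 10 genes between mice. It (ENSMUSG00000036940, GRCm38 chromosome 4, 136550533 to 136602787) was measured at 47.3 and 57.5 CPM in KI and 53.2 and 56.3 CPM in KD. The KD values fall between the KI values, so the groups overlap. The means were 52.4 ± 7.23 CPM in KI and 54.8 ± 2.20 CPM in KD (SD, n = 2 each), a log2 fold change of 0.06 ± 0.28 (SE) with adjusted p = 0.9945 in edgeR. Its 95% interval ran from -0.63 to 0.76, which corresponds to KD levels between 0.645 and 1.69 times those of KI. Between the 2 KI mice Kdm1a differed by 0.28 on the log2 scale, where counting error alone has an SD of 0.12, and between the 2 KD mice by 0.08, with a counting SD of 0.08. The sign of so small a difference turned with the scaling: it was -0.18 when libraries were scaled to reference genes, and 0.49 with library size only. Among 6533 other genes of at least 20 CPM on average, those with the pattern over the 4 libraries nearest to Kdm1a were Pank2, a pantothenate kinase, Cyhr1, and Hprt, a purine salvage enzyme often used as a reference gene. Their distances from Kdm1a were 0.02, 0.02 and 0.04 on the centred log2 scale, over 4 libraries only.

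The CoREST scaffolds did not move together. Rcor1, the founding CoREST gene (ENSMUSG00000037896, chromosome 12, 111039367 to 111115902), lay at 65.6 and 112.8 CPM in KI and 71.7 and 76.8 CPM in KD. KI replicate 2 was the high library, and the other 3 lay close together. The log2 fold change was -0.27 ± 0.35 (SE; 95% interval -1.13 to 0.59; adjusted p = 0.9343 in edgeR), and it turned to 0.24 without KI replicate 2. The gap between the KI mice, 0.78 on the log2 scale, was far above the counting SD of 0.10.

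Rcor3 (ENSMUSG00000037395, chromosome 1, 192098546 to 192138074), whose protein binds LSD1 but is known to stimulate it less than CoREST1 does, had the opposite odd mouse. It lay at 11.4 and 4.51 CPM in KI and 11.6 and 9.16 CPM in KD, with KI replicate 2 lowest and KI replicate 1 within the range of the KD mice. The log2 fold change was 0.40 ± 0.59 (SE; 95% interval -1.06 to 1.87; adjusted p = 0.9486 in edgeR), and -0.05 without KI replicate 2 or 1.34 without KI replicate 1.

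Rcor2 (ENSMUSG00000024968, chromosome 19, 7267394 to 7275225), a CoREST form best known from neural and embryonic stem cells, had the fewest counts of the 10 genes: 24, 21, 8 and 14 reads in KI replicates 1 and 2 and KD replicates 1 and 2. These are 5.57 and 2.49 CPM in KI against 0.566 and 1.21 CPM in KD. Both KD libraries lay below both KI libraries, as they did for 23.5% of all genes tested, and KI replicate 1, the shallowest library, was the highest. The log2 fold change was -2.16 ± 0.88 (SE; 95% interval -4.34 to 0.03), with an unadjusted p of 0.0508 and adjusted p = 0.5185 in edgeR. The KI mice, the group where the gene is high, were by themselves enough for it to pass the low-count filter. Its fold change, p and ratio to Rcor1 are therefore given as values and support no difference between genotypes. Without KI replicate 1 the value was -1.38 with adjusted p = 0.4281. The summed levels of silent receptor genes and of neutrophil granule, erythroid, T cell and B cell markers were also higher in both KI libraries. Gene by gene this held less widely. Both KD libraries lay below both KI libraries for 9 of 10 neutrophil granule and 12 of 12 erythroid markers tested. They did so for 4 of 9 T cell and 0 of 3 B cell markers tested. Summed myeloid progenitor markers were higher in both KD libraries, and those of stroma overlapped. The part of these differences in the Rcor2 value was not tested. In bulk RNA, fewer cells of a type that expresses Rcor2 and less Rcor2 RNA in each cell cannot be told apart.

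Among the class I deacetylases Hdac1 had a value above both others, and none passed the test. Hdac1 (ENSMUSG00000028800, chromosome 4, 129516104 to 129542646) lay at 20.9 and 29.3 CPM in KI and 30.5 and 34.9 CPM in KD. Both KD libraries were above both KI libraries, by a narrow gap, as they were for 14.5% of all genes tested. Its log2 fold change was 0.38 ± 0.33 (SE; 95% interval -0.45 to 1.20; adjusted p = 0.8405 in edgeR) and ran from 0.28 without KD replicate 2 to 0.71 without KI replicate 2. Either way round, 2 of the 10 genes, Hdac1 and Rcor2, had groups that did not overlap, against 38.0% of all genes. An annotated Hdac1 pseudogene copy on chromosome 17 (Gm10093) drew 10, 26, 39 and 43 counts in the 4 libraries, 10.1% as many as Hdac1 in all, and adding them gave a log2 fold change of 0.37. Reads that fit both copies may have been dropped or split between them, so the level of Hdac1 is uncertain.

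Hdac2 (ENSMUSG00000019777, chromosome 10, 36974297 to 37001889), which shares most of its complexes with Hdac1, lay at 36.2 and 56.4 CPM in KI and 45.9 and 51.6 CPM in KD. Hdac3 (ENSMUSG00000024454, chromosome 18, 37936971 to 37955015), the catalytic subunit of the NCoR complex, lay at 29.7 and 49.7 CPM in KI and 37.2 and 46.1 CPM in KD. In both genes the KD mice fall between the KI mice. Hdac2 had a log2 fold change of 0.07 ± 0.33 (95% interval -0.76 to 0.90) and Hdac3 0.07 ± 0.36 (-0.84 to 0.97), with adjusted p = 0.9945 and 0.996 in edgeR. Hdac1 made up 24.1% and 21.7% of the counts of the 3 deacetylases in the KI mice and 26.8% and 26.3% in the KD mice. The exact 95% binomial interval of KI replicate 1, 19.8% to 28.7%, spans both KD values, while that of KI replicate 2, 19.3% to 24.2%, does not. These intervals cover counting error only.

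The H3K9 methyltransferases all had positive log2 values below 0.4, with groups that overlap. Ehmt1 (ENSMUSG00000036893, chromosome 2, 24790769 to 24919643) lay at 57.8 and 80.7 CPM in KI and 89.2 and 73.6 CPM in KD. Ehmt2 (ENSMUSG00000013787, chromosome 17, 34898463 to 34914073), its catalytic partner, lay at 106.2 and 184.7 CPM in KI and 151.4 and 223.5 CPM in KD. Suv39h1 (ENSMUSG00000039231, chromosome X, 8061171 to 8074760) lay at 37.6 and 83.2 CPM in KI and 66.6 and 85.1 CPM in KD. KI replicate 1 was lowest for all 3 genes, and replicate 2 was the higher mouse of both genotypes for Ehmt2 and Suv39h1 but not for Ehmt1 in KD. The log2 fold changes were 0.23 ± 0.31 (SE) for Ehmt1, 0.36 ± 0.39 for Ehmt2 and 0.32 ± 0.44 for Suv39h1, with adjusted p = 0.9366, 0.8993 and 0.9402 in edgeR. Leaving out KI replicate 2 raised Ehmt1 to 0.57 and Ehmt2 to 0.88. The lowest such values were 0.088 for Ehmt1, without KD replicate 1, and 0.056 for Ehmt2, without KD replicate 2. Suv39h1 had the widest gap between the KI mice of these 3 genes, 1.15 on the log2 scale against a counting SD of 0.13. Its value was -0.01 without KI replicate 1 and 1.07 without KI replicate 2, so the value rests on which KI mouse is kept.

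**Figure D2:**
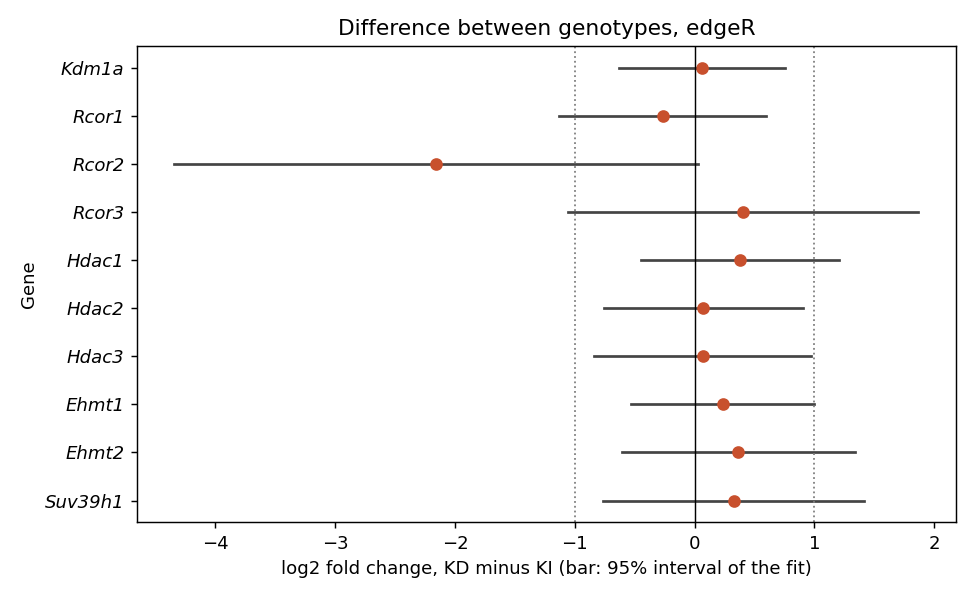
Log2 fold change, KD minus KI, for each corepressor gene (points), with the 95% interval of the edgeR fit (bars); the dotted lines mark a 2-fold difference in either direction. The intervals of Kdm1a, Hdac2, Hdac3 and Ehmt1 lie inside these lines, and that of Rcor2 runs from -4.34 to 0.03.

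The intervals of the main fit, with TMM scaling, show how large a difference these 4 mice could have hidden. For Kdm1a, Hdac2, Hdac3 and Ehmt1 the 95% interval lay within a 2-fold difference in either direction, which held for 16.9% of all genes tested, and for Ehmt1 it reached 1.99-fold. The other 6 genes had intervals that go beyond 2-fold, up to 2.30-fold higher in KD for Hdac1, 2.52-fold for Ehmt2, 2.67-fold for Suv39h1 and 3.65-fold for Rcor3. At the other end, the interval reached down to KD levels of 0.457 times those of KI for Rcor1, 0.480 for Rcor3 and 0.0493 for Rcor2. With 2 mice a genotype, a 2-fold change of those genes in at least 1 direction lies within what these data allow. The half-width of the interval had a median of 0.88 on the log2 scale over the 10 genes. Intervals under other scalings are not given here, and the values themselves moved with the scaling. The log2 fold change of Ehmt1 was 0.23 in the main fit, 0.68 with library size only and 0.026 with scaling to reference genes.

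KI replicate 1 was the lowest of the 4 libraries for 8 of the 10 genes (all but Rcor2 and Rcor3), beside 33.6% of all genes tested and 50.6% of the 6534 genes of at least 20 CPM on average. It was also lowest for 8 of the 10 reference genes, among them Actb and Gapdh, whose geometric mean was 134.5 CPM there and 183.0, 167.9 and 207.5 CPM in KI replicate 2 and KD replicates 1 and 2. Without KI replicate 1 the median over the 10 genes was 0.03 (0.00 over all genes), with 5 positive and 5 negative values. Without KI replicate 2 it was 0.52 (0.10 over all genes), with 8 positive and 2 negative. No gene of the 10 passed in any of these fits, the lowest adjusted p being 0.08996 for Rcor2 without KI replicate 2.

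Count ratios between pairs of these genes within a library do not depend on the scaling between libraries. The level of such a ratio also reflects transcript lengths, so only its change between mice was read. The ratio of Rcor3 to Rcor1 was 0.0400 in KI replicate 2 (exact 95% binomial interval 0.0281 to 0.0553), and 0.173, 0.162 and 0.119 in KI replicate 1 and KD replicates 1 and 2, whose intervals start at 0.0966 or above. KI replicate 2 thus had fewer Rcor3 counts for its Rcor1 counts than the other 3 mice, beyond counting error, while the genotypes overlap. The ratio of Kdm1a to Rcor1 was 0.721 and 0.510 in KI and 0.742 and 0.733 in KD, again with KI replicate 2 apart and the other 3 mice alike. The ratio of Hdac2 to Hdac1 was 1.73 and 1.92 in KI and 1.51 and 1.48 in KD, a log2 difference of -0.29, and that of Hdac3 to Hdac1 was 1.42 and 1.70 against 1.22 and 1.32, also -0.29. The ratio of Rcor2 to Rcor1 was 0.0848 and 0.0221 in KI and 0.00790 and 0.0158 in KD, a log2 difference of -1.96.

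For these 4 pairs without overlap (Kdm1a to Rcor1 among them), the two-sided exact permutation test gave p = 0.333, the smallest that 2 mice against 2 allow. The 7 ratios compared can therefore not pass a threshold of 0.05. The pairs without overlap share Hdac1 or Rcor1, so they are not separate results, and no such share was computed over pairs of other genes. The ratio of Ehmt2 to Ehmt1 was 1.84 and 2.29 in KI and 1.70 and 3.04 in KD, so the KD mice differed more from each other than the KI mice did. That of Suv39h1 to Ehmt2 stayed between 0.354 and 0.450 in the 4 mice.

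**Figure D3:**
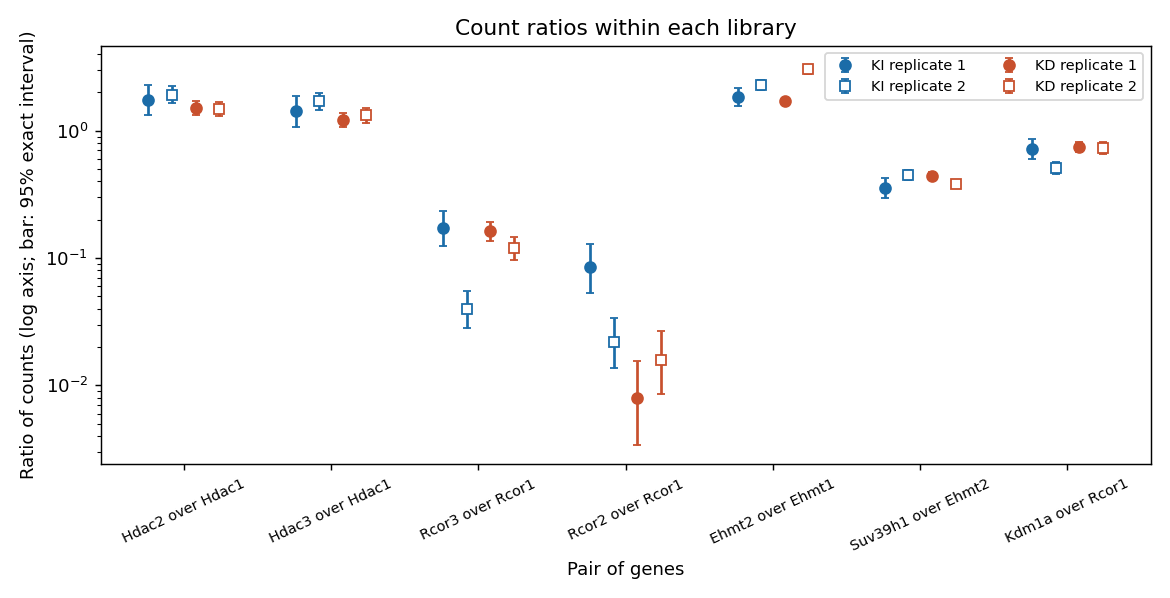
Ratio of raw counts for 7 pairs of corepressor genes in each library, on a log axis, with exact 95% intervals that cover counting error only; blue is KI, red is KD, filled circles are replicate 1 and open squares replicate 2. KI replicate 2 lies apart for Rcor3 over Rcor1, at 0.0400 against 0.119 to 0.173.

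The other genes of these pathways were counted from 7 lists of complex subunits and H3K9 or H3K4 enzymes. Of 73 measured genes 0 passed edgeR's test (0% of all genes), and 1, Gfi1 itself, had an unadjusted p under 0.05 (9.63% of all genes). The median log2 fold change was 0.02, with 38 positive and 35 negative values, and 18 genes had groups that did not overlap, 11 higher and 7 lower in KD, beside 38.0% of all genes (14.5% higher and 23.5% lower).

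Of 13 measured CoREST partners 5 had positive and 8 negative values, with a median of -0.02. After Gfi1, the lowest p belonged to Gfi1b, the paralogue of Gfi1 that uses the same LSD1 complex in red cells and platelets. Gfi1b lay at 4.87 and 8.54 CPM in KI and 2.48 and 2.77 CPM in KD, with a log2 fold change of -1.36 ± 0.63 (SE) and adjusted p = 0.5563 in edgeR. Both KD libraries were lower, and so were the erythroid markers, whose part in this value was not tested.

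Members of the complexes that share Hdac1 and Hdac2 had log2 values of both signs. The Sin3 list had a median of 0.06 over 15 genes, with Sap130 at 0.50 ± 0.31 and Ing2 at -0.56 ± 0.44. The NuRD list had a median of 0.03 over 10 genes, with Mta3 at 0.49 ± 0.39 and the remodeller Chd3 at -0.52 ± 0.48. Without KI replicate 2 these medians were 0.40 for Sin3 and 0.64 for NuRD, and without KI replicate 1 both were -0.13. Chd3 was high in KI replicate 1 alone (61.7 CPM, against 32.7 or less elsewhere), and its value turned to 0.39 without that library. The 5 genes of the NCoR list, built around Hdac3, had a median of 0.18, with Tbl1xr1 at 0.28 ± 0.27. In the MiDAC and MIER list, also of 5 genes, the scaffold Mier2 lay at 10.4 and 14.9 CPM in KI and 21.2 and 24.7 CPM in KD (0.85 ± 0.37, SE; adjusted p = 0.535 in edgeR), while its relative Mier3 lay the other way at -0.57 ± 0.30.

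Other writers and readers of H3K9 methylation had a median of -0.00 over 12 genes, and the lowest p values were those of the methyltransferases Setdb1 at 0.44 ± 0.28 and Setdb2 at 0.30 ± 0.32. That median was 0.35 without KI replicate 2. The demethylases of H3K9 and H3K4 had a median of 0.05 over 13 genes, or 0.22 without KI replicate 1. Their lowest p values were those of Phf8, at 41.7 and 37.4 CPM in KI and 67.0 and 51.5 CPM in KD (0.58 ± 0.30), and of Phf2 (0.33 ± 0.27). Both are PHD finger demethylases, and both were higher in both KD libraries without passing the test (adjusted p = 0.5881 and 0.8091 in edgeR).

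**Figure D4:**
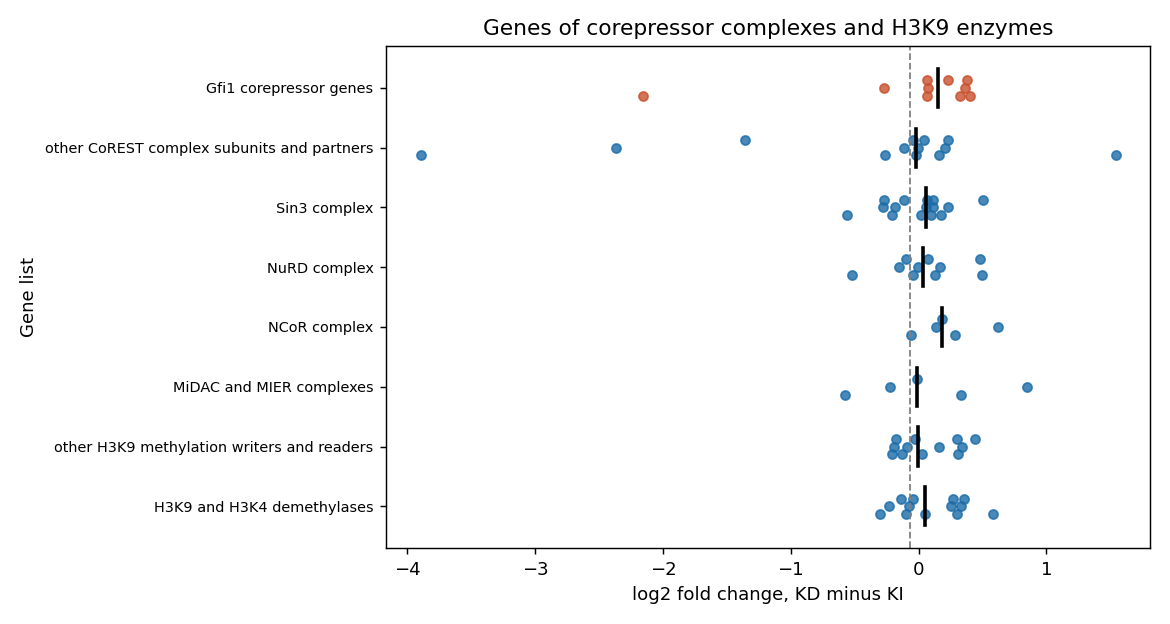
Log2 fold change, KD minus KI, of each measured gene in the corepressor set (red) and 7 related lists (blue); black bars are list medians and the dashed line is the median of all 13822 genes tested, -0.06. Most points lie within 1 log2 unit of 0. The points beyond it are Gfi1 at -3.89, Insm1, a CoREST partner with few counts, at -2.37, Rcor2 at -2.16, Gfi1b at -1.36 and Ctbp2 at 1.54.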

How the data were processed

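RNA was measured in 4 libraries, 1 per mouse (TruSeq Stranded mRNA kit, per the labels' protocols). The deposited values are raw counts per Ensembl gene, made on build GRCm38 per the submitters' processing notes, which list HTSeq, TopHat2 2.0.10, DESeq and SAMtools. The 5 summary entries that name no gene, 93.2% to 97.9% of each file's total, were left out. The 8 chromatin libraries are not analysed here: 1616 per-sample columns name neither antibody nor mouse.

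Symbols were matched for 40254 of 41214 IDs, and coordinates come from RefSeq GRCm38.p6. In R 4.3.3, edgeR 4.0.16 (filterByExpr, TMM, glmQLFit, glmQLFTest, genotype as the only term, Benjamini-Hochberg over 13822 genes) was fitted to the whole table and tested on simulated data. SE and 95% intervals come from the quasi-likelihood F statistic and its degrees of freedom. The spread that p-values measure is that between these 4 mice. The members and gene lists were chosen with earlier results of these data known. Named genes were the 10 members, Gfi1, the 2 of lowest p in each list and the 3 nearest to Kdm1a; 1 of these is not reported here. Ratios use raw counts, since transcript lengths were not used here. Alternatives were other scalings and filters, DESeq2 1.42.0, limma-voom (limma 3.58.1), the replicate number as a block, and leaving out each library.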

Additional observations from a re-analysis of the deposited data

How the results depend on the processing

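Of 130 values of the 10 genes under the alternatives, 117 kept their direction without a call, 13 turned sign and 0 passed the threshold. Scaling to reference genes turned the median of the 10 genes (-0.059) and Kdm1a (-0.18), Hdac2 (-0.15), Hdac3 (-0.15), Pank2 (-0.16), Cyhr1 (-0.16) and Hprt (-0.16). Upper quartile factors turned Kdm1a (-0.017), Pank2 (-0.0024), Cyhr1 (-0.0024) and Hprt (-0.0059), and so did a filter of at least 5 CPM in 2 libraries (Kdm1a -0.016, Pank2 -0.0017, Cyhr1 -0.0016, Hprt -0.0055), under which Rcor2 was not tested. Library size only turned Rcor1 (0.19) and moved the median of the 10 genes to 0.60, where it moved that of all genes by 0.43 (reference genes moved it by -0.24). Without 1 library each, values ran from -0.47 to 0.24 for Rcor1 and from -0.053 to 1.345 for Rcor3, both turned by KI replicate 2, from -0.078 to 0.50 for Hdac2 and -0.13 to 0.55 for Hdac3, both turned by KI replicate 1 and by KD replicate 2, and from -0.0060 to 1.07 for Suv39h1 and -0.98 to 0.39 for Chd3, both turned by KI replicate 1. The cause was not tested. Leaving out 1 library moved the median of the 10 genes between 0.028 and 0.52.

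Log2 ratio differences ran, without 1 library each, from -0.32 to 1.80 for Rcor3 over Rcor1, -0.27 to 0.57 for Ehmt2 over Ehmt1 (-0.01 without KI replicate 1) and -0.14 to 0.21 for Suv39h1 over Ehmt2 (-0.07 without KD replicate 1). The other 4 ratios kept their sign. A length-scaled ratio was not run.

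Calls over all genes were 0 with all 4 libraries, 169 with no low-count filter, 142 with DESeq2, and 39 to 787 without 1 library, where a lone mouse is assumed to vary like the other genotype. With the replicate number as a block there were 7, none of them among the 10 genes. Same-numbered mice share only a number: their deviations correlated at 0.249 across genes, over 2 pairs. For genes of low counts such as Rcor2, depth limits what could be seen.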

Other observations

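Ctbp2, a corepressor that CoREST complexes can contain, was all but missing from 1 mouse. It was singled out after its values were seen. Ctbp2 (chromosome 7, 132986998 to 133124009) had 115, 13, 549 and 479 counts in KI replicates 1 and 2 and KD replicates 1 and 2, or 26.7, 1.54, 38.9 and 41.4 CPM. KI replicate 1 was thus 17.3-fold above KI replicate 2, a gap of at least 8-fold that was seen in 1.13% of the 6534 genes of at least 20 CPM on average. The KD minus KI difference was 1.54 ± 1.11 on the log2 scale (SE; adjusted p = 0.7593 in edgeR). Its neighbour Zranb1 had 868 counts in KI replicate 2, and its levels in KI replicates 1 and 2 were 58.9 and 103.0 CPM, those of Abraxas2 42.7 and 43.8 CPM, so the low value did not extend to these genes. Ctbp1, its paralogue, lay at 85.3 and 146.6 CPM in KI and 111.4 and 147.7 CPM in KD. KI replicate 2 is also the mouse with the low Rcor3 to Rcor1 ratio.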
